A study of Rattus norvegicus with 18 samples.

Results

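The comparison described here sets carbon tetrachloride (CCl4) directly against trichloroethylene (TCE), a pair of chlorinated solvents, in primary rat hepatocytes. Hepatocytes are the parenchymal cells of the liver; primary ones come straight from liver and are cultured briefly, unlike a cell line. Its members are the 3 libraries labelled CCl4 and the 4 labelled TCE, 7 of the 18 libraries of the series. Cells were exposed for 6 h in medium with 0.1% DMSO, TCE at 1 mM and CCl4 at a dose that the sources used here do not give. The protocol that calls the doses sub-toxic does not name CCl4. Doses therefore cannot be called matched, and a difference between the solvents and a difference between their doses cannot be told apart. The 3 control libraries received 0.1% DMSO alone for 6 h and are used to show the baseline. The remaining 8 libraries are 4 exposed for 6 h to 3 mM acetaminophen (APAP), an analgesic toxic to liver at high dose, and 4 exposed for 6 h to 1 nM of the dioxin TCDD, which is known to activate the aryl hydrocarbon receptor. Of these, all but TCDD replicate 1 share the fit and its estimate of spread, and they are set beside the solvents where stated. Whether replicates come from different animals or dishes is not in the labels, so each p-value reflects library-to-library spread, which may be technical. In bulk RNA, fewer cells of a type and less RNA per cell cannot be told apart.

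The solvents differ in structure: CCl4 is a saturated single-carbon molecule that carries chlorine on every bond, and TCE is a chlorinated ethylene with a carbon-carbon double bond. In liver, CCl4 is known to be activated by cytochrome P450 enzymes, chiefly CYP2E1, to the trichloromethyl radical, which starts lipid peroxidation. TCE is known to be oxidised by cytochromes P450 to chloral and on to trichloroacetate and dichloroacetate, and also to be conjugated to glutathione. Trichloroacetate is known as an activator of the nuclear receptor PPAR alpha in rodents. The files list transcripts by identifier alone. Of the 30897 identifiers, 0 matched the RefSeq gene table used for names, so genes of these pathways, hepatocyte markers and markers of other liver cells are not analysed here. Transcripts are described by their length, level, baseline and behaviour across libraries.

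Total estimated counts ranged from 9986868 to 10844403 in the 7 libraries, and between 19255 and 19801 transcripts had a count above 0. TCE replicate 4 stood apart from the other TCE libraries. On the first principal component of the 7 libraries, which held 22.2% of the variance, it lay at 64.6, with the other 6 libraries between -35.2 and 7.05. The second component held 20% and separated the 3 CCl4 libraries, at 20.9 to 42.1, from TCE replicates 1 to 3, at -34.1 to -24.3, with TCE replicate 4 between them at 3.53. A chi-square per degree of freedom, which is near 1 for sampling noise alone, was 14.5 to 18.8 between TCE replicate 4 and the other TCE libraries, 4.49 to 5.24 among those 3, and 5.81 to 8.97 among the CCl4 libraries. Among these 9 pairs within groups no library was a copy of another by this measure. Results are given with and without TCE replicate 4 where it moves them.

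CCl4 and TCE left most of the transcripts measured at levels that these libraries could not separate. Of 16270 transcripts tested, 307 differed (1.89%; adjusted p under 0.05 in edgeR, quasi-likelihood F test with the Benjamini-Hochberg method), 210 higher with CCl4 (1.29%) and 97 lower (0.596%). In each of these 307 the 3 CCl4 libraries and the 4 TCE libraries did not overlap, which choosing them by a test on the same libraries favours. Over all tested transcripts 16.8% showed no overlap. Most differences were small. The median difference was 0.51 on the log2 scale among transcripts higher with CCl4, which is 1.43-fold, with quartiles of 0.37 and 0.70. It was -0.53 among those lower, which is 1.45-fold, with quartiles of -0.75 and -0.40. More than 2-fold were 27 of the 210 and 14 of the 97.

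The count of 307 rests on each CCl4 library and on some of the TCE libraries. It was 124, 100 and 134 without CCl4 replicates 1, 2 and 3. It was 190 and 148 without TCE replicates 2 and 3, and 349 without TCE replicate 4, of which 249 were shared with the 307. Libraries outside the contrast also moved it, and the cause was not tested: the count was 589 without TCDD replicate 4 and 151 when TCDD replicate 1, a shallow library that was left out of the fit, was put back. The balance of directions depended on how libraries were scaled. With TMM factors 68.4% of the differing transcripts were higher with CCl4, and with scaling to total counts 26.7% of 529 were; the median log2 difference of all transcripts was -0.01 and -0.10 under these scalings. Of the 307, 238 also differed with scaling to total counts, and 0 of those changed direction.

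**Figure D1:**
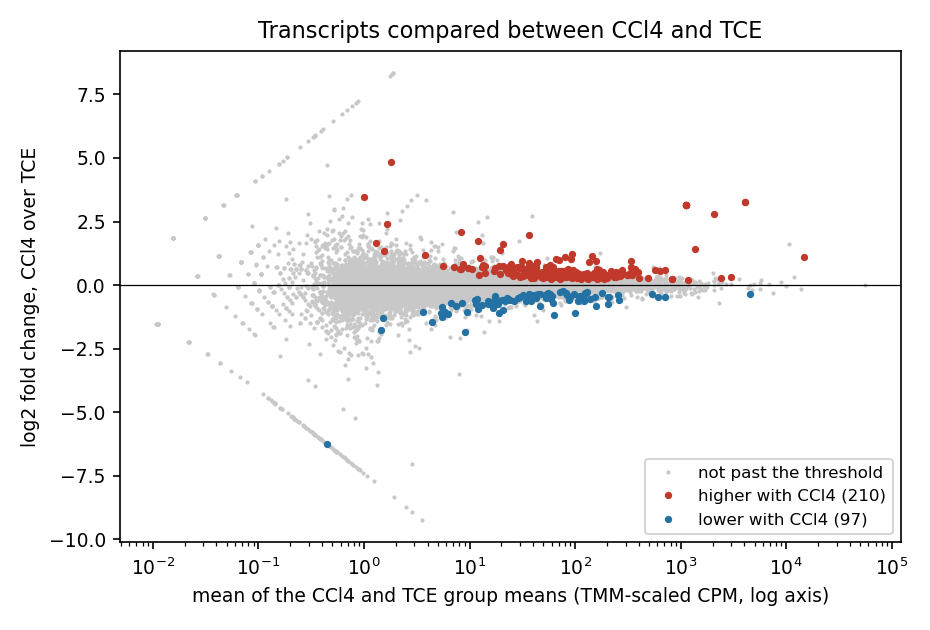
Each point is a transcript, with the mean of the CCl4 and TCE group means on the x axis (CPM, counts scaled by TMM to a common library total; log axis) and the log2 fold change of CCl4 over TCE on the y axis; red and blue points passed the threshold. The 210 transcripts higher with CCl4 and the 97 lower lie mostly within 1 log2 unit of 0, and a small group at the far right of the higher ones lies near 3.

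A larger share of abundant than of rare transcripts differed. Of the 100 most abundant, ranked by mean CPM over the 17 libraries of the fit, 14 differed, 13 of them higher with CCl4. These include 8 short transcripts described below as a set; without that set 6 of the other 92 differed (6.52%), 5 higher and 1 lower. Of the next 900, 5.78% differed, 42 transcripts higher and 10 lower. Of the 4000 after those, 3.80% differed, 107 higher and 45 lower, and below rank 5000 it was 0.79%, 48 higher and 41 lower. The 95% interval of a difference, which holds counting error and spread between libraries together, reached a median of 0.20 log2 units to either side for the 100 most abundant and 0.54 below rank 5000. Length did not order the transcripts in this way. The share that differed was 1.26% for transcripts of up to 1000 bases, 2.11% above that and up to 2000 bases, 1.97% up to 4000 bases and 1.79% above 4000 bases. Counts that were whole numbers in all 18 libraries, which kallisto gives where no read is split between transcripts, were found for 153 of the 307 (49.8%), against 39.2% of all tested transcripts.

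Where no difference was called, the intervals say how large a difference could have been missed. For 73.1% of tested transcripts the 95% interval of the difference between CCl4 and TCE lay within 1 log2 unit of 0, that is, within 2-fold in either direction. Among the 15963 transcripts that were not called, this held for 11646. With called transcripts included, the share was 88.0% for the 100 most abundant and 98.2% for the next 900. It was 98.1% for the 4000 after those and 62.1% below rank 5000. The 100 most abundant include the 8 short transcripts described below, whose differences of 2.80 to 3.26 log2 units place them outside. Shares by abundance among the transcripts that were not called are not given here. The interval lay wholly beyond 1 log2 unit for 42 transcripts. Not all of these passed the adjusted threshold, since only 41 of the transcripts that passed differed by more than 2-fold. These intervals are not adjusted for the number of transcripts.

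Among the transcripts that passed and reached a mean of 5 CPM in either group, the 8 largest differences belonged to short, very abundant transcripts of 411 or 666 bases that were higher with CCl4. Their values fall into 3 sets, identical within each set in every library, of 5, 2 and 1 transcripts, so they count as at most 3 separate measurements. The 8 did not have whole-number counts in all libraries, so some of their reads were split between transcripts. Which transcripts share those reads was not tested. The largest log2 difference outside this set was 2.07 among the transcripts that passed at that level. ENSRNOT00000077306.1 and ENSRNOT00000087247.1, both of 666 bases, were the pair with the largest difference and had the same values throughout. With CCl4 their level was 18722, 23228 and 12760 TPM each (a level per transcript length, scaled to one total in every library) in replicates 1 to 3. With TCE it was 2599, 1745, 2148 and 2230 TPM in replicates 1 to 4. In the control it was 20253, 13742 and 21882 TPM. The lowest CCl4 library was thus well above the highest TCE library, and the control libraries lay in the range of CCl4. The means were 18237 ± 5251 TPM with CCl4 (SD, n = 3) and 2180 ± 350.2 TPM with TCE (SD, n = 4), and the log2 difference was 3.26 ± 0.56 (SE; edgeR quasi-likelihood test, adjusted p = 0.0068).

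Together the 8 transcripts held 2.87%, 3.75% and 2.08% of all estimated counts in the CCl4 libraries, and 0.415%, 0.283%, 0.341% and 0.344% in the TCE libraries. The control libraries had 2.92%, 1.95% and 3.2%. The same signal varied widely inside other groups. The 4 APAP libraries held 1.29%, 0.539%, 2.86% and 3.82%, a 7.08-fold range among replicates. The TCDD libraries held 0.319%, 0.113% and 0.342% in replicates 2 to 4 and 2.69% in replicate 1. Within CCl4 and within TCE the range was 1.80-fold and 1.47-fold. The call depends on what is counted as spread: with TCDD replicate 1 in the fit the difference of the named pair stayed at 3.26 and did not pass (edgeR adjusted p = 0.148), while over the 7 fits that leave out 1 CCl4 or TCE library the adjusted p ran from 0.0137 to 0.0397. Whether library preparation has a part in this signal was not tested. The 8 transcripts made up 9.65%, 12.3% and 7.18% of TPM in the CCl4 libraries and 1.02% to 1.48% in the TCE libraries. In the control libraries they made up 10.29%, 7.155% and 10.71%. TPM sums to the same total in each library, so the TPM of the remaining transcripts is lowered accordingly in CCl4 and in the control, relative to TCE.

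**Figure D2:**
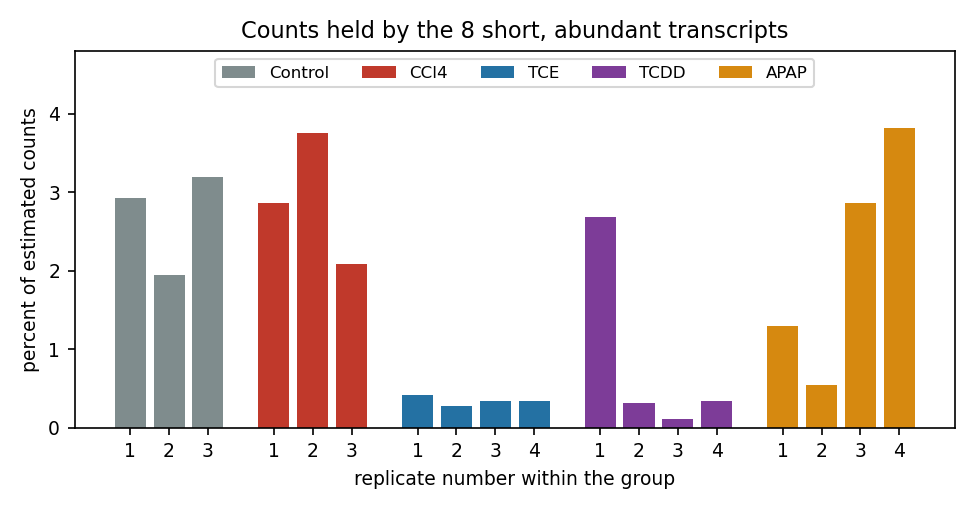
Bars give the percent of all estimated counts in each of the 18 libraries that was held by the 8 short, abundant transcripts, by group and replicate number. The 4 TCE libraries stand between 0.283% and 0.415%, below the 3 CCl4 libraries at 2.08% to 3.75%, and the APAP libraries spread from 0.539% to 3.82%.

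Among transcripts that passed and reached a mean of 5 CPM in either group, the largest differences in the other direction belonged to transcripts of low level. Over all 97 lower with CCl4, with no such limit, the log2 difference reached -6.25. ENSRNOT00000012948.5, of 2436 bases, had 2.64, 1.33 and 2.35 TPM in CCl4 replicates 1 to 3, and 7.74, 7.28, 10.01 and 9.13 TPM in TCE replicates 1 to 4. The control libraries had 4.63, 5.20 and 3.66 TPM, above each CCl4 library and below each TCE library. The groups did not overlap, and the means were 2.11 ± 0.691 TPM with CCl4 (SD, n = 3), 4.50 ± 0.781 in the control (SD, n = 3) and 8.54 ± 1.26 with TCE (SD, n = 4). The log2 difference of CCl4 from TCE was -1.84 ± 0.31 (SE; edgeR adjusted p = 0.00511), with a 95% interval from -2.49 to -1.19, and it passed in each of the fits that leave out 1 CCl4 or TCE library (edgeR adjusted p from 0.00881 to 0.0437). In the other groups the transcript was listed at 0.409 to 1.27 TPM with APAP and at 4.13 to 11.2 TPM in the 4 TCDD libraries.

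ENSRNOT00000068221.1, of 1429 bases, had 2.58, 2.44 and 1.82 TPM in CCl4 replicates 1 to 3, and 6.51, 7.10, 9.30 and 5.11 TPM in TCE replicates 1 to 4. The control libraries had 2.67, 4.22 and 6.75 TPM and so spanned the gap between the solvents, reaching into the range of TCE. The log2 difference was -1.45 ± 0.33 (SE; edgeR adjusted p = 0.0345). It did not pass without CCl4 replicates 1, 2 or 3 (edgeR adjusted p = 0.109, 0.125 and 0.174) or TCE replicates 1, 2 or 3 (0.0613, 0.0745 and 0.111). It passed without TCE replicate 4 (edgeR adjusted p = 0.0205). It did not pass with all 18 libraries in the fit (edgeR adjusted p = 0.0647) or with the 10 CCl4, TCE and control libraries alone (0.0658). The estimated counts of these transcripts were between 19.7 and 190.4 in the 7 libraries and were not whole numbers throughout.

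**Figure D3:**
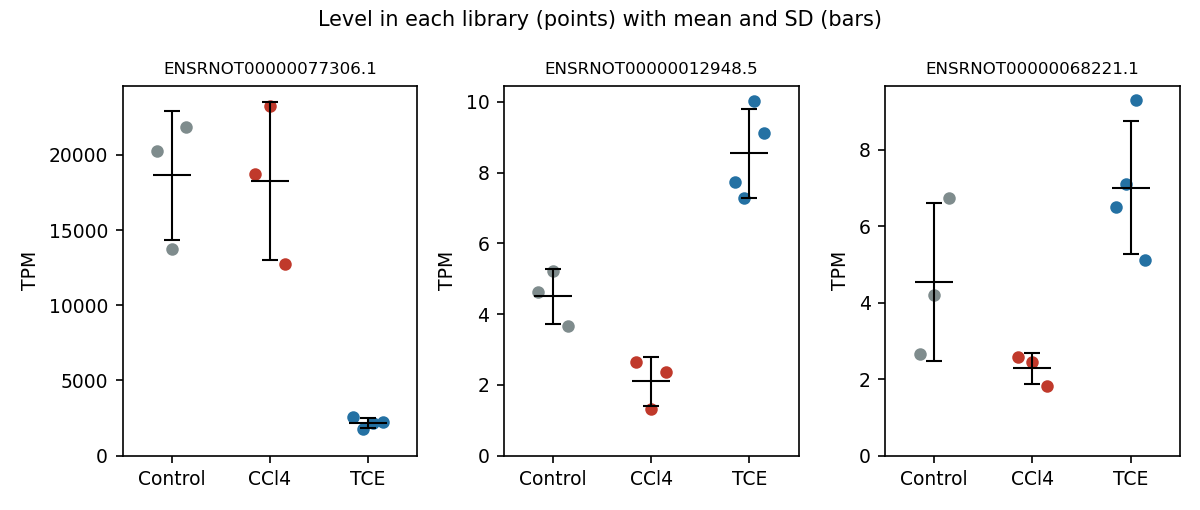
Points give the TPM of 3 transcripts in each control, CCl4 and TCE library, and bars the mean and SD; ENSRNOT00000087247.1 has the values of the left panel. In the left panel the CCl4 libraries lie with the control, at a mean of 18237 TPM, and the TCE libraries near a mean of 2180 TPM; in the middle panel the control libraries lie between the solvents.

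For the differing transcripts the control libraries show on which side the departure from baseline lay. This is a description: transcripts were chosen for the difference between the solvents, and the control libraries were in the fit but not in that contrast. Among the 210 transcripts higher with CCl4, the control overlapped the TCE libraries and not the CCl4 libraries in 125 (59.5%). It overlapped the CCl4 libraries alone in 39 (18.6%), lay between both solvents in 31, lay outside both on the same side in 13 and overlapped both in 2. Among the 97 lower with CCl4, the control overlapped the TCE libraries alone in 42 (43.3%) and the CCl4 libraries alone in 26 (26.8%), lay between the solvents in 17, outside both in 5 and overlapped both in 7. Over all tested transcripts these shares were 18.5% for TCE alone, 7.60% for CCl4 alone, 0.479% between, 7.86% outside both and 65.6% for both. In the differing transcripts the solvents did not overlap, which leaves little room for a control that overlaps both. The shares among them are therefore not directly comparable with those over all tested transcripts. A group of 4 libraries spans a wider range than a group of 3, which makes overlap with TCE more likely, and TCE replicate 4 widens it further. Without that library, of 221 transcripts higher with CCl4 the control overlapped TCE alone in 98 (44.3%) and CCl4 alone in 53 (24.0%). Of 128 lower with CCl4 the numbers were then 33 (25.8%) and 44 (34.4%), so the order of the sides turned among the lower transcripts. Shares over all tested transcripts without TCE replicate 4 are not given here.

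**Figure D4:**
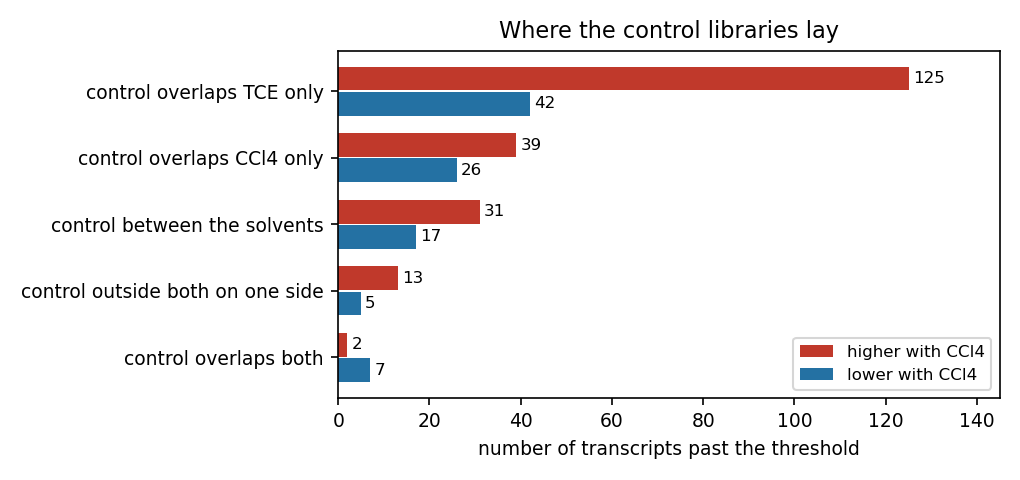
Bars count the 210 transcripts higher with CCl4 (red) and the 97 lower (blue) by where the 3 control libraries lay relative to the 3 CCl4 and 4 TCE libraries in TMM-scaled CPM. The largest class, with 125 transcripts, is that of transcripts higher with CCl4 whose control libraries overlap TCE and not CCl4.

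By group means the distances from baseline were uneven among the transcripts higher with CCl4 and nearly even among those lower. Of the 210 higher, the control mean of log2 CPM was nearer to TCE in 152 and nearer to CCl4 in 58. Over all tested transcripts it was nearer to TCE in 8451 of 16270. The median difference from the control was 0.40 log2 units for CCl4 and -0.11 for TCE. Of the 97 lower, the control was nearer to TCE in 53 and to CCl4 in 44; the median difference from the control was -0.27 for CCl4 and 0.25 for TCE. Without TCE replicate 4 the control was nearer to TCE in 147 of 221 higher transcripts and in 60 of 128 lower ones, so that among the lower it was then more often nearer to CCl4. In the sets of 210 and 97 the solvents lay on opposite sides of the baseline at the median. Choosing transcripts by the difference between the solvents favours such a position. These distances use TMM-scaled levels, and those with scaling to total counts are not given here.

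Single libraries showed the same order. Leaving out the 8 short transcripts, the remaining 202 transcripts higher with CCl4 stood at medians of 0.40, 0.42 and 0.39 log2 units over the control mean in the 3 CCl4 libraries, and from -0.11 to -0.07 in the 4 TCE libraries. The 97 lower ones stood at -0.24, -0.29 and -0.30 in the CCl4 libraries and from 0.22 to 0.29 in the TCE libraries. These separations follow from how the transcripts were chosen. The libraries of APAP and TCDD were not in the contrast, though they shared the fit and so bore on which transcripts passed. In TCDD replicates 2 to 4 the 202 transcripts stood at -0.07, -0.11 and 0.02 and the 97 at 0.25, 0.25 and 0.04. In the 4 APAP libraries the 202 stood at 0.07 to 0.14 and the 97 at -0.39 to -0.28, on the same side of the control as CCl4. Over all tested transcripts the APAP libraries stood at -0.06 to -0.03.

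Transcript by transcript, the TCDD mean over replicates 2 to 4 was nearer to TCE than to CCl4 in 200 of the 210 transcripts higher with CCl4 and in 95 of the 97 lower. Over all tested transcripts it was nearer to TCE in 10198 of 16270. Without TCE replicate 4 the counts were 202 of 221 and 124 of 128. APAP was nearer to CCl4 in 107 of the 210 (51.0%) and in 63 of the 97 (64.9%), and over all tested transcripts in 50.7%. For the 210 the share was thus near that over all tested transcripts. Whether the doses of these agents are comparable is not stated in the labels.

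**Figure D5:**
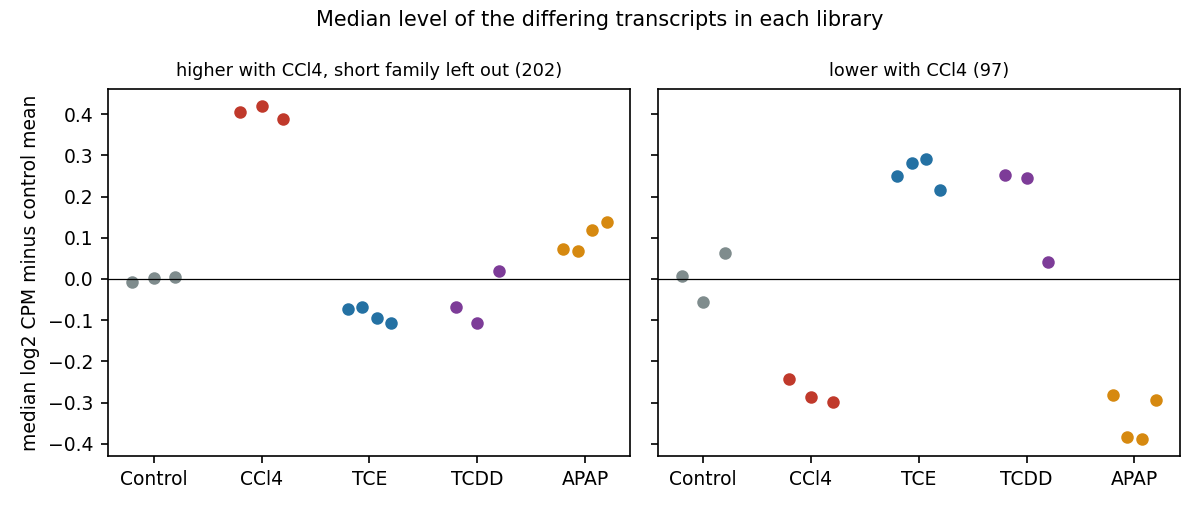
Points give, for each of the 17 libraries of the fit, the median over transcripts of log2 CPM minus the mean of the control libraries, for the 202 transcripts higher with CCl4 (left) and the 97 lower (right). CCl4 and TCE were used to choose the transcripts. TCDD replicates 2 and 3 lie near TCE in both panels, and TCDD replicate 4 lies near the control at 0.02 and 0.04. APAP lies on the same side of the control as CCl4, at 0.07 to 0.14 on the left and -0.39 to -0.28 on the right.

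Some of the differences did not depend on any 1 of the 7 libraries. In all 7 fits that leave out 1 CCl4 or TCE library, 87 of the 307 passed, 79 higher with CCl4 and 8 lower. The 79 included 7 of the 8 short transcripts. The other 72 had log2 differences from 0.32 to 2.07, with a median of 0.59, and 10 of them exceeded 2-fold. Their median level was 57.4 TPM with CCl4, 41.2 TPM with TCE and 38.8 TPM in the control, and 45 of the 72 had whole-number counts in all libraries. The control mean was nearer to TCE in 66 of the 72, and the TCDD mean in 72. The 8 lower ones had log2 differences from -1.84 to -0.47 and a median level of 11.4 TPM with CCl4, 21.3 TPM with TCE and 14.7 TPM in the control. For the 72 and for these 8, TPM in CCl4 and in the control is lowered relative to TCE by the short transcripts. Across the 27 alternative fits planned without a replicate block, 70 transcripts passed, 64 higher with CCl4 and 6 lower.

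The share of counts held by broad classes of transcripts also separated the solvents. The 100 most abundant transcripts held 34.0%, 35.5% and 33.4% of counts in the CCl4 libraries and 31.0%, 31.5%, 31.5% and 30.7% in the TCE libraries, with 32.5% to 34.7% in the control. The difference was 3.18 percentage points, and 1.46 points with the 8 short transcripts left out. Transcripts of up to 1000 bases held 16.1% ± 0.823 with CCl4 (SD, n = 3) and 13.4% ± 0.298 with TCE (SD, n = 4), a difference of 2.74 points, or 0.531 without the 8. The control libraries held 13.2% to 15.6% in this class. Transcripts over 2000 bases held 46.7% ± 0.878 (SD, n = 3) and 48.5% ± 1.05 (SD, n = 4), a difference of -1.79 points. Without the 8 it was -0.572 points, less than the SD of 1.05 among the TCE libraries. In the control this class held 47.3% to 51.9%, and the SD of 2.32 points (n = 3) was larger than the difference between the solvents. With the 8 included, CCl4 and TCE did not overlap in these 3 classes. The exact two-sided permutation test gave p = 0.0571 in each (also 0.0571 after adjustment over these 3 tests). With 3 and 4 libraries no smaller value is possible, so this design cannot pass 0.05.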

How the data were processed

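Per the submitters' processing notes the authors used kallisto 0.43, which splits reads that match several transcripts; the build, the annotation and the layout of reads were not given in the sources used here. Deposited tables hold estimated counts, which can be fractional, and TPM for 30897 transcripts. Estimated counts were rounded and tested; TPM gives levels. edgeR 4.0.16 in R 4.3.3 (filterByExpr, TMM, robust quasi-likelihood) was fitted to 17 libraries with group as factor and the contrast CCl4 minus TCE. TCDD replicate 1 was left out because it stood apart (6563387 counts, 27416 transcripts above 0). The 16270 transcripts tested held 99.9% of counts. Standard errors were obtained by dividing each log2 fold change by the root of its F; 21 transcripts gave no interval. Named transcripts are the 2 per direction with the largest log2 fold change that passed, reached 5 CPM in either group and did not overlap; the number is low because identifiers could not be named. The set of 8 was singled out after its values were seen. Members, lists and tests were chosen with earlier results of these data known. Whole counts use a tolerance of 1e-06. The test was checked on data simulated with the same spread for every transcript and no library standing apart. That check does not bear on how the calls depend on the estimate of spread. Alternatives used DESeq2 1.42.0 and limma 3.58.1, other filters, scalings, libraries and blocks.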

Additional observations from a re-analysis of the deposited data

How the results depend on the processing

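The count of 307 was within 1.5 times with DESeq2 size factors, other low-count filters, fits of only the 7 or the 10 libraries, the length trend removed, and, chosen after seeing the data, identical transcripts collapsed to 1. It was 151 with all 18 libraries, 529 with scaling to total counts, 698 with DESeq2 and 1441 with limma voom, and between 100 and 589 with 1 library left out; the cause was not tested. The share higher with CCl4, 68.4%, was 74.6% with DESeq2 size factors, 26.7% with scaling to total counts, 53.7% with limma voom and 62.8% with only the 7 libraries, and between 58.6% and 87.0% with 1 library left out. Deviations of same-numbered CCl4 and TCE libraries correlated at r = -0.02, 0.14 and -0.01 by title number. By the number in the table's name r was -0.04, 0.04 and 0.14. The CCl4 library numbered 2 by title, and the one numbered 4 by table name, correlated best with the TCE library of that number. The others did not. So few values cannot settle whether the numbers pair the samples. With a replicate block on the 7 libraries the count was 1453 by title number (51.0% higher) and 17 by table number (100% higher). By title number TCE replicate 4, and by table number TCE replicate 1, has no CCl4 library of its number. That library then adds nothing to the contrast, so the blocked fits also differ in the TCE libraries they compare. The part of this in the counts was not tested. By title number the 666-base pair ENSRNOT00000077306.1 and ENSRNOT00000087247.1 did not pass (edgeR adjusted p = 0.0585), and by table number neither ENSRNOT00000012948.5 nor ENSRNOT00000068221.1 did (edgeR adjusted p = 0.108 for each). In none of these settings did a transcript among the 307 that passed change direction, nor did the 4 named ones where a value was listed. No value was listed for ENSRNOT00000068221.1 with the DESeq2 test, or for the 4 with identical transcripts collapsed. The difference in counts held by the 100 most abundant transcripts ran from 2.58 to 3.63 points with 1 library left out, by those of up to 1000 bases from 2.28 to 3.08, and by those over 2000 bases from -2.15 to -1.28. Intervals were widest below rank 5000, where the part of depth was not tested.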
